A study of Mus musculus with 13 samples.

Results

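The genes described are the E2F transcription factors E2f1, E2f2, E2f3, E2f4, E2f5, E2f7 and E2f8 and the pocket protein genes Rb1, Rbl1 and Rbl2. They were chosen by symbol, matched to the mouse gene identifiers through the GRCm39 annotation, and make up 10 of the 57010 genes listed. RNA was sequenced from wild-type (WT) mouse embryonic fibroblasts (MEFs), primary cultures grown from minced embryos, in 4 groups. The control MEFs were untreated and non-senescent. The senescent MEFs had received 2 μM etoposide, a topoisomerase II poison that breaks DNA, for 24 h and then normal medium for 5 days. The remaining groups were senescent MEFs made in the same way and then given Fucoidan-FV, a sulfated polysaccharide of the seaweed Fucus vesiculosus, at 100 or 300 μg/mL for 12 h (FV100 and FV300). Every group held mice 4, 5 and 6, and control mouse 5 had 2 libraries, 5(1) and 5(2), whose counts were summed. Senescence was induced in culture by 1 agent and RNA was taken from whole cultures, so fewer cycling cells and less RNA per cell cannot be told apart in these values.

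E2F proteins bind promoters of genes needed for DNA replication and cell division. E2f1, E2f2 and E2f3 are known as activators, E2f4 and E2f5 as repressors that work with pocket proteins, and E2f7 and E2f8 as atypical repressors that bind DNA without a DP partner or a pocket protein. The pocket proteins made by Rb1, Rbl1 and Rbl2 hold E2F factors in check until cyclin-dependent kinases phosphorylate them, and the Rbl1 and Rbl2 products also join the MuvB proteins in the DREAM complex, which silences cell cycle genes in resting cells.

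Library totals ran from 22782536 to 30820405 expected counts in 12 of the libraries and reached 31278750 in the senescent library of mouse 4. Of the 10 members, 9 passed the filter on low counts and were among the 15034 genes tested, and E2f2 did not. The fibroblast markers Vim, Col1a1, Col1a2, Col3a1, Thy1 and Pdgfrb were present in every sample, and Lum was at most 0.06 TPM and Dcn at most 1.35 TPM in control. The 10 markers, led by Vim, had a summed level of 9912 to 11640 TPM (RSEM's abundance per length) in control and 12430 to 14840 TPM across the other groups. Among markers of other cell types, the 8 macrophage markers summed to 0.26 to 5.05 TPM in control, 2.68 to 10.6 in senescent, 8.11 to 17.7 in FV100 and 4.61 to 14.2 in FV300 samples. Of the 4 neuron markers, Snap25 and Rbfox3 were at 0 in all control and senescent samples, and the list summed to at most 2.23 TPM there and to 7.73 to 19.6 TPM in the fucoidan groups, of which Map2 made up 7.6 to 19.1 TPM. The 5 endothelial markers summed to at most 2.05 TPM without fucoidan and to 1.74 to 6.52 TPM with it, the 4 epithelial markers to at most 2.01 TPM in any sample, and of the 8 muscle markers Myod1, Myog and Myh3 stayed at or below 0.2 TPM while Des and Acta1, which fibroblast cultures also express, carried the list's 123 to 315 TPM. The part of these cells in the members' values was not tested. Libraries also stood apart from others of their group in genes with little sequence shared between transcripts, and the values for Rb1 are given with and without offsets for it.

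The promoters of E2f7 and Rbl1, which fell in senescent MEFs, and of E2f1 are shown because E2F genes are known as targets of E2F factors themselves. Each run covers 220 bases before and 30 bases from the canonical transcription start on, in GRCm39, read 5′ to 3′ on the gene's strand. Capitals mark any of the 4 words TTTCCCGC, TTTCGCGC, TTTGCCGC and TTTGGCGC, forms of the E2F binding motif, on either strand.
E2f7 promoter, chr10:110581086-110581335, plus strand: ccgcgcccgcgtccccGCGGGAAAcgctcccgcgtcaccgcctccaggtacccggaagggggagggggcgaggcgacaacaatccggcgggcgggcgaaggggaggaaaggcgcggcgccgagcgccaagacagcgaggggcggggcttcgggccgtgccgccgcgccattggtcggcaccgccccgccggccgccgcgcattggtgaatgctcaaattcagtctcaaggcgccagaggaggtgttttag
Rbl1 promoter, chr2:157046446-157046695, minus strand: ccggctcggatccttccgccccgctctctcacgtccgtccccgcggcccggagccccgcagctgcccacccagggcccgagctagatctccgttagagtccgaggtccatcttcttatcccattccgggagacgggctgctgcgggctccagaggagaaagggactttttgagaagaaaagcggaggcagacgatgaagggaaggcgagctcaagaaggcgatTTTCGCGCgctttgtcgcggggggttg
E2f1 promoter, chr2:154411783-154412032, minus strand: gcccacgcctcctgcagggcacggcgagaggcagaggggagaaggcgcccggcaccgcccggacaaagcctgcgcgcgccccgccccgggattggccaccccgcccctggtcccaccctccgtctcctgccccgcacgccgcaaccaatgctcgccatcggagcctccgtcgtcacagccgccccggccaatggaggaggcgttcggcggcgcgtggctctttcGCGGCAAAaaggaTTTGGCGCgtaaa
Counted from the start as base 1 with the base before it as −1, E2f7 carried its word at −204 to −197. In Rbl1 the word lay at 4 to 11, and E2f1 had words at 5 to 12 and at 18 to 25, which do not overlap. The windows hold the bases before the canonical start, and the first 30 bases from it on, of E2f7 (gene at chr10:110581300-110623245), Rbl1 (chr2:156987813-157046475) and E2f1 (chr2:154401326-154411812). In windows of 300 bases around the start (250 before and 50 after), 6 of the 9 members whose promoters are described here held at least 1 of these words, namely E2f1, E2f2, E2f3, E2f7, Rb1 and Rbl1, against 614 of 21770 protein-coding genes (2.8%). E2f4, E2f5 and Rbl2 had none of these words in that window. TTTGAA, the CHR word of late cell cycle genes, was found on either strand in E2f3, Rb1 and Rbl2 (17.1% of all promoters), and CCAAT, the NF-Y word, in 5 of the 9 (39.9% of all promoters). The match describes the sequence only, since no binding was measured here.

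Senescent MEFs had far less RNA of both atypical repressors, E2f7 and E2f8, and of the pocket protein gene Rbl1 than control MEFs, while the activators E2f1 and E2f3 and the repressors E2f4 and E2f5 were 1.15- to 1.31-fold lower and did not pass the test. A gene was called a differentially expressed gene (DEG) where its Benjamini-Hochberg adjusted p from edgeR's quasi-likelihood test was under 0.05 and its log2 fold change over 1 in size. By this rule 3 of the 9 tested members were called, all lower. Over all genes tested, 8.42% were called in either direction, 4.47% higher and 3.95% lower, and the median log2 fold change was 0.07.

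**Figure D1:**
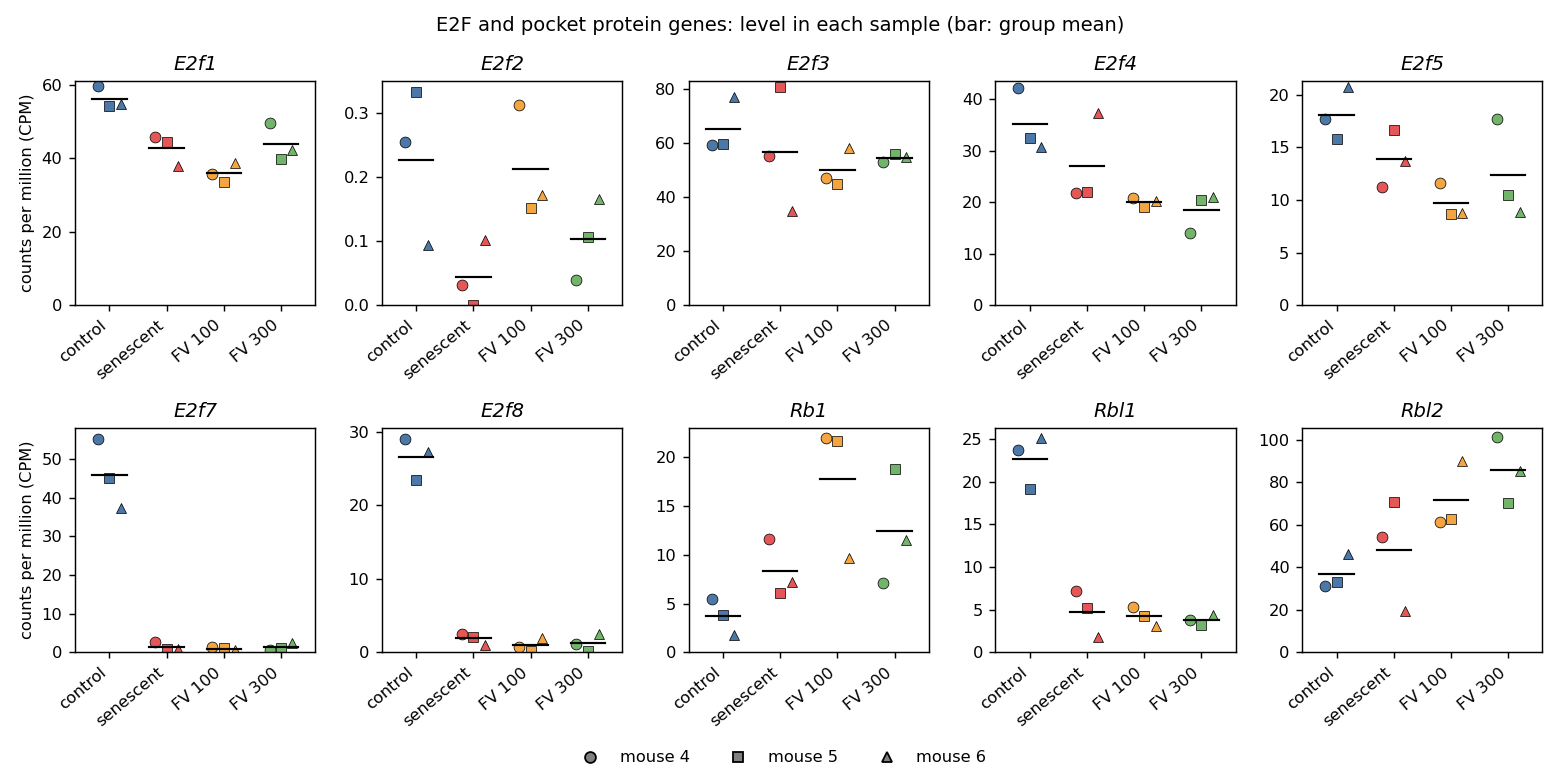
Level of each member in CPM (linear axis from 0, counts scaled to library size and TMM factor) in the 4 groups, with 1 point per mouse and a bar at the group mean. E2f7, E2f8 and Rbl1 stand high in the 3 control samples and low in all 9 senescent samples with or without fucoidan, and Rb1 and Rbl2 reach their highest values with fucoidan.

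Levels in CPM are counts scaled to library size multiplied by edgeR's TMM factor of the sample. E2f1, the founding member of the family and an activator of S phase genes, had 59.8, 54.2 and 54.8 CPM in control mice 4, 5 and 6. The senescent samples of the same mice had 45.9, 44.5 and 38.1 CPM. In CPM the groups did not overlap, and E2f1 was lower in 3 of 3 mice, yet the log2 fold change of −0.39 (SE 0.18, 95% CI −0.78 to −0.01) had an adjusted p of 0.188 by edgeR. In TPM it was also lower in 3 of 3 mice, but the groups overlapped, with senescent mouse 4 at 26.66 and control mouse 5 at 26.05. E2f3, the other activator expressed at a substantial level, had 59.4, 59.6 and 77.0 CPM in control and 55.2, 80.7 and 34.8 CPM in senescent MEFs. The senescent samples lay on both sides of the control values, and the log2 fold change was −0.20 (SE 0.26, edgeR adjusted p 0.708). E2f2, an activator known for its role in blood cell progenitors, was close to absent, with 0 to 15 counts in any library, so it is described by its counts. Its control samples had 6, 17 and 2 counts and its senescent samples 1, 0 and 3, which are too few to compare.

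E2f4, a repressor that depends on pocket proteins to stay in the nucleus, had 42.2, 32.4 and 30.8 CPM in control and 21.9, 22.1 and 37.4 CPM in senescent MEFs of mice 4, 5 and 6. Mouse 6 went up and the other mice down, with a log2 fold change of −0.37 (SE 0.27, edgeR adjusted p 0.433). E2f5, the related repressor, had 17.7, 15.8 and 20.7 CPM in control and 11.2, 16.6 and 13.7 CPM in senescent MEFs. It was lower in 2 of 3 mice, the groups overlapped, and its log2 fold change of −0.38 (SE 0.31) had an adjusted p of 0.496 by edgeR. Gene models on the opposite strand cover 43.4% of the exonic bases of E2f5 (Rbis), 20.3% of those of E2f8 (Gm2788) and 35.4% of those of Rbl2 (Aktip). Whether counting used strand is not given in the sources used here, so reads of these gene pairs cannot be told apart with certainty.

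E2f7 had 55.2, 45.0 and 37.4 CPM in control MEFs of mice 4, 5 and 6 and 2.56, 0.776 and 0.883 CPM in their senescent MEFs. The highest senescent sample was far below the lowest control sample. The log2 fold change was −5.01 (SE 0.60, 95% CI −6.30 to −3.73), a 32.3-fold lower level, with an adjusted p of 0.000204 by edgeR. E2f8, which acts together with E2f7 to shut down E2F target genes late in the cell cycle, had 29.0, 23.5 and 27.2 CPM in control and 2.53, 2.11 and 1.05 CPM in senescent MEFs. Again no sample of one group reached the other. Its log2 fold change was −3.80 (SE 0.86, 95% CI −5.65 to −1.96, edgeR adjusted p 0.0115). Both calls held with each control or senescent mouse left out in turn, with an adjusted p of at most 0.00214 for E2f7 and 0.0376 for E2f8.

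Among the pocket protein genes Rbl1 was called lower, and Rb1 and Rbl2 did not pass the test. Rbl1, whose product is made mainly in cycling cells, had 23.7, 19.1 and 25.1 CPM in control and 7.22, 5.13 and 1.77 CPM in senescent MEFs. All 3 mice fell, without overlap, by 2.27 on the log2 scale (SE 0.45, edgeR adjusted p 0.00507), and the call held with each of these mice left out in turn (adjusted p of at most 0.024). Rb1, the retinoblastoma gene, had 5.44, 3.87 and 1.79 CPM in control and 11.6, 6.12 and 7.24 CPM in senescent MEFs. In CPM it was higher in 3 of 3 mice and the groups did not overlap. The log2 fold change of 1.17 (SE 0.49, 95% CI 0.12 to 2.22) did not pass the test (adjusted p = 0.15 by edgeR). In TPM Rb1 had 2.25, 3.015 and 5.2 in control and 5.17, 8.8 and 4.9 in senescent MEFs. By that measure mouse 6 was lower and the groups overlapped. Rbl2, the pocket protein gene that predominates in resting cells, had 31.2, 32.9 and 46.2 CPM in control and 54.3, 70.6 and 19.6 CPM in senescent MEFs. Mice 4 and 5 lay above every control sample and mouse 6 below every one, and the log2 fold change was 0.39 (SE 0.36, edgeR adjusted p 0.571). Without senescent mouse 6 it was 0.77 with an adjusted p of 0.0251 by edgeR, short of the fold threshold, and over all alternatives the adjusted p ran from 0.0251 to 0.978.

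**Figure D2:**
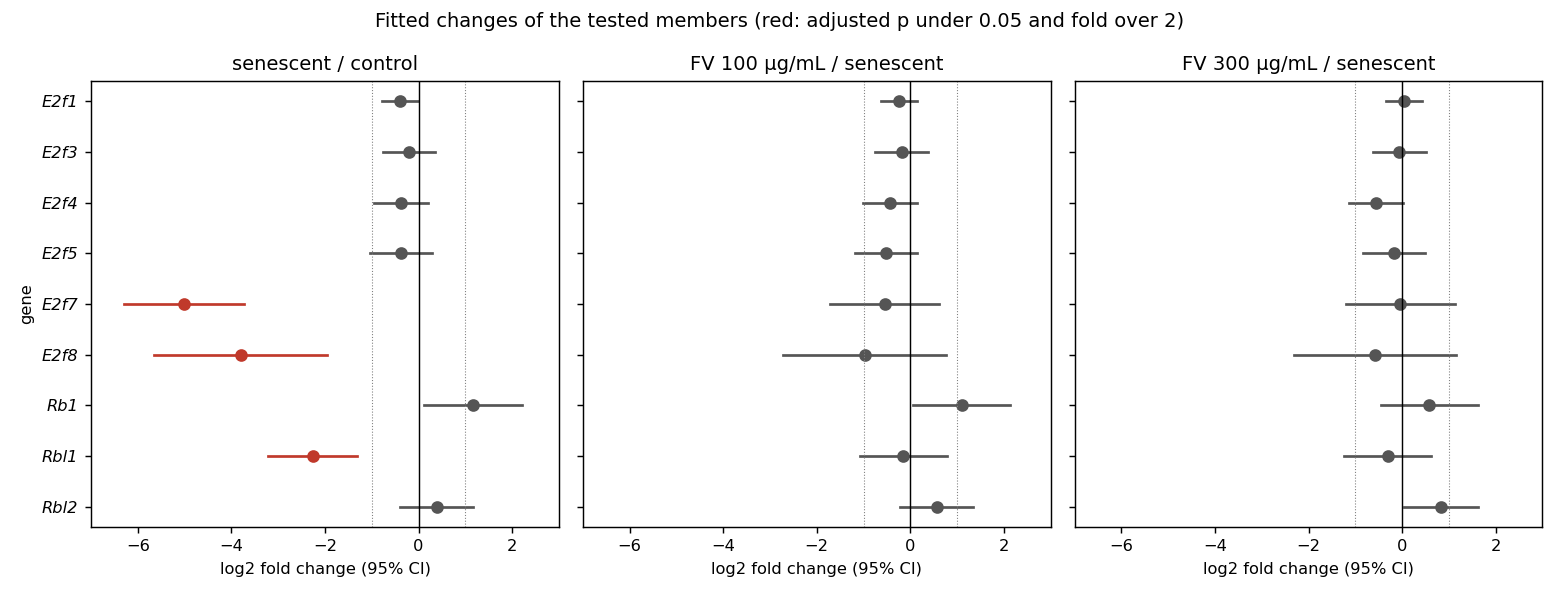
Fitted log2 fold change (horizontal axis) of the 9 tested members (rows) with its 95% confidence interval, for senescent against control and for each fucoidan dose against senescent, with dotted lines at −1 and 1 and called genes in red. E2f7, E2f8 and Rbl1 are called in senescent against control, and no member is called at either fucoidan dose.

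Fucoidan-FV did not bring the lowered members back to control levels within 12 h, and no member was called against senescent MEFs without fucoidan by edgeR at either dose. At FV100, 0 of 9 tested members were called, where 2.69% of all genes tested were (1.10% higher and 1.60% lower), and at FV300, 0 of 9, where 1.64% were (0.752% higher and 0.885% lower). Before adjustment 1 of 9 members passed 0.05 at each dose, Rb1 at FV100, where 19.8% of all genes tested did, and Rbl2 at FV300, where 15.3% did, so these counts do not stand above all genes, and DESeq2 also called 0 at both doses. Both dose comparisons used the same 3 senescent samples, so they are given side by side.

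E2f7 stayed at 1.25, 0.984 and 0.657 CPM in FV100 and at 0.543, 1.17 and 2.45 CPM in FV300 samples of mice 4, 5 and 6. These values overlapped those of senescent MEFs, and all of them lay below every control sample. The log2 fold change against senescent MEFs was −0.55 (95% CI −1.72 to 0.62) at FV100 and −0.035 (95% CI −1.19 to 1.12) at FV300. E2f8 had 0.783, 0.114 and 1.97 CPM in FV100 and 1.12, 0.178 and 2.53 CPM in FV300 samples. Mouse 5 was lowest at both doses, at 3 and 5 counts. Against senescent MEFs its log2 fold change was −0.98 (95% CI −2.73 to 0.77) at FV100 and −0.58 (95% CI −2.31 to 1.16) at FV300. Rbl1 had 5.35, 4.24 and 3.11 CPM in FV100 and 3.84, 3.20 and 4.36 CPM in FV300 samples, all within the range of the senescent samples. The interval of its log2 fold change reached from −1.08 to 0.78 at FV100 and from −1.24 to 0.62 at FV300.

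Among the activators, E2f1 had 35.8, 33.5 and 38.7 CPM in FV100 and 49.6, 39.8 and 42.4 CPM in FV300 samples. In CPM the FV300 samples all lay above the FV100 samples, with a log2 fold change between the doses of 0.29 (95% CI −0.10 to 0.67, edgeR adjusted p 0.97). In TPM the lowest FV300 sample (26.39) was just below the highest FV100 sample (26.41). E2f3 had 47.1, 45.0 and 58.1 CPM in FV100 and 53.1, 55.9 and 55.1 CPM in FV300 samples, inside the spread of the senescent group. E2f2 had 10, 4 and 5 counts in FV100 and 1, 3 and 4 counts in FV300 samples. Among the repressors, E2f4 had 20.8, 19.1 and 20.2 CPM in FV100 and 14.1, 20.5 and 21.1 CPM in FV300 samples. In CPM, which include the TMM factors, every sample at both doses was below every senescent sample, which ran from 21.9 CPM. The log2 fold changes were −0.44 (SE 0.27, edgeR adjusted p 0.397) and −0.55 (SE 0.27, edgeR adjusted p 0.356). Without senescent mouse 6, whose 37.4 CPM stood above the other senescent samples, the FV100 log2 fold change of E2f4 was 0.02. In TPM both doses overlapped the senescent samples of E2f4. These had 24.8, 23.8 and 32.6 TPM, against 26.4, 24.3 and 25.7 in FV100 and 16.9, 28.0 and 26.1 in FV300. E2f5 had 11.6, 8.67 and 8.72 CPM in FV100 and 17.7, 10.5 and 8.84 CPM in FV300 samples, and its groups overlapped the senescent samples at both doses.

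Rb1 and Rbl2 had their highest levels in the fucoidan groups. Rb1 had 22.0, 21.7 and 9.69 CPM in FV100 and 7.13, 18.8 and 11.5 CPM in FV300 samples. In FV100 it was above the senescent sample of the same mouse in 3 of 3 mice, though the groups overlapped through mouse 6, and the log2 fold change was 1.09 (SE 0.48, 95% CI 0.06 to 2.13, edgeR adjusted p 0.225). At FV300 mouse 4 was lower and the others higher, with a log2 fold change of 0.58 (SE 0.48, edgeR adjusted p 0.639). Rbl2 had 61.5, 62.8 and 89.9 CPM in FV100 and 101, 70.3 and 85.1 CPM in FV300 samples. Mice 4 and 6 were higher than their senescent samples at both doses, whereas mouse 5 was not above its senescent value of 70.6 CPM at either dose. The log2 fold change was 0.57 (SE 0.36, edgeR adjusted p 0.423) at FV100 and 0.83 (SE 0.36, edgeR adjusted p 0.295) at FV300. Between the doses no member was called by edgeR (0 of 9, with 0.00665% of all genes called, 1 gene), 0 had an unadjusted p under 0.05, as did 0.625% of all genes tested, and DESeq2 called 0.

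Set against control MEFs, the fucoidan groups showed the same lowered members plus higher Rb1, and at FV300 higher Rbl2. These comparisons share the control samples with the senescent comparison and with each other. At FV100, 4 of 9 tested members were called, with 19.7% of all genes called in either direction, and at FV300, 5 of 9, with 18.0% of all genes. E2f7 had log2 fold changes of −5.56 (SE 0.62) at FV100 and −5.05 (SE 0.60) at FV300, E2f8 of −4.78 (SE 0.90) and −4.38 (SE 0.89), and Rbl1 of −2.42 (SE 0.45) and −2.58 (SE 0.45), each with an adjusted p of at most 0.00297 by edgeR. Rb1 was higher than every control sample at both doses, by a log2 fold change of 2.26 (SE 0.50, edgeR adjusted p 0.00473) at FV100 and 1.75 (SE 0.49, edgeR adjusted p 0.0195) at FV300. The FV300 call of Rb1 was lost without control mouse 6 (adjusted p = 0.0677), control mouse 5 (0.0649) or FV300 mouse 5 (0.0954), and with library 5(2) alone (0.0783), in a range over all alternatives of 0.000925 to 0.0954. Rbl2 was higher than every control sample at both doses, with a log2 fold change of 0.96 (SE 0.37, edgeR adjusted p 0.0685) at FV100 and 1.22 (SE 0.37, edgeR adjusted p 0.0272) at FV300. The FV300 call of Rbl2 was lost with the mouse as a block (adjusted p = 0.0523) and without control mouse 4 (0.0807), control mouse 5 (0.0765), FV300 mouse 4 (0.0869) or FV300 mouse 6 (0.0665), in a range over all alternatives of 0.00047 to 0.0869. At FV100 Rbl2 was called in 5 of 19 alternatives, among them DESeq2 (adjusted p 0.0349) and leaving out control mouse 6 (edgeR, 0.0392), in a range of 0.00471 to 0.2. E2f1 (adjusted p = 0.0177), E2f4 (0.0391) and E2f5 (0.046) at FV100 and E2f4 at FV300 (0.0236) passed edgeR's adjusted p with log2 fold changes of −0.64, −0.81, −0.90 and −0.92, short of the fold threshold, where 26.6% of all genes passed the adjusted p alone at FV100 and 24.4% at FV300. With the mouse as a block E2f4 (0.0511) and E2f5 (0.0609) no longer passed at FV100. With the offsets for transcript number and length, E2f1 (log2 fold change −1.31, adjusted p 0.00672) and E2f5 (−1.65, 0.0159) were called at FV100, and without FV300 mouse 6 E2f4 was called at FV300 (−1.02, 0.0469). Over all alternatives edgeR's and DESeq2's adjusted p ran from 0.00213 to 0.13 for E2f1, 0.0143 to 0.242 for E2f4 and 0.0159 to 0.199 for E2f5 at FV100, and from 0.00491 to 0.122 for E2f4 at FV300.

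Levels of different genes were compared per length, in TPM. In control MEFs the order was E2f4 at 34.9 ± 5.83 TPM (mean ± SD, n = 3), E2f1 at 27.8 ± 2.59, E2f7 at 19.2 ± 2.01, E2f3 at 17.8 ± 2.39, E2f5 at 14.8 ± 2.06, Rbl2 at 11.2 ± 1.55, E2f8 at 9.65 ± 1.52, Rbl1 at 9.57 ± 1.69, Rb1 at 3.49 ± 1.53 and E2f2 at 0.0683 ± 0.0375. Neighbours such as E2f7 and E2f3 or E2f8 and Rbl1 lay within each other's spread, while E2f1 stood above E2f7 and Rbl1 above Rb1 by more than their SDs. In senescent MEFs E2f4 (27.1 ± 4.79 TPM), E2f1 (22.2 ± 4.99), E2f3 (16.7 ± 7.42), Rbl2 (14.5 ± 8.49) and E2f5 (11.7 ± 2.3) came first. Neighbours in this order had overlapping spreads. E2f5, at no more than 14.35 TPM, lay below every sample of E2f1 (from 16.82) and E2f4 (from 23.84). E2f7, at 0.503 ± 0.363 TPM, and E2f8, at 0.807 ± 0.465 TPM, ranked above E2f2 alone. With fucoidan, Rbl2 stood among the most abundant members, at 28.1 ± 2.22 TPM in FV100 and 30.02 ± 1.72 TPM in FV300, next to E2f1 at 25.0 ± 1.46 and 27.6 ± 1.06 TPM.

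By class, E2f7 and E2f8 together went from 28.8 ± 2.7 TPM (SD, n = 3) in control to 1.31 ± 0.788 TPM in senescent, 1.34 ± 0.231 in FV100 and 1.27 ± 0.745 in FV300 MEFs. The activators summed to 45.6 ± 3.01 TPM in control, 38.9 ± 11.6 in senescent, 44.7 ± 1.77 in FV100 and 46.9 ± 2.38 in FV300 MEFs, where senescent mouse 6 had 25.6 TPM and every other sample 42.2 to 49.7 TPM. From senescent to FV100 MEFs the 2 measures differed in direction. The CPM include TMM factors and the TPM do not. In mice 4, 5 and 6 these factors were 1.00, 0.906 and 0.955 in senescent and 1.15, 1.16 and 0.994 in FV100 samples. Their part in the difference was not tested. Mean E2f1 went from 42.8 to 36.0 CPM but from 22.2 to 25.0 TPM. Mean E2f3 went from 56.9 to 50.1 CPM but from 16.7 to 19.3 TPM. E2f4 and E2f5 summed to 49.6 ± 6.56, 38.8 ± 3.5, 36.8 ± 3.38 and 36.4 ± 3.35 TPM in the same order. The pocket protein genes summed to 24.3 ± 3.76, 22.9 ± 11.1, 41.0 ± 3.21 and 40.9 ± 3.46 TPM, with senescent mouse 6 at 10.3 TPM below all others.

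**Figure D3:**
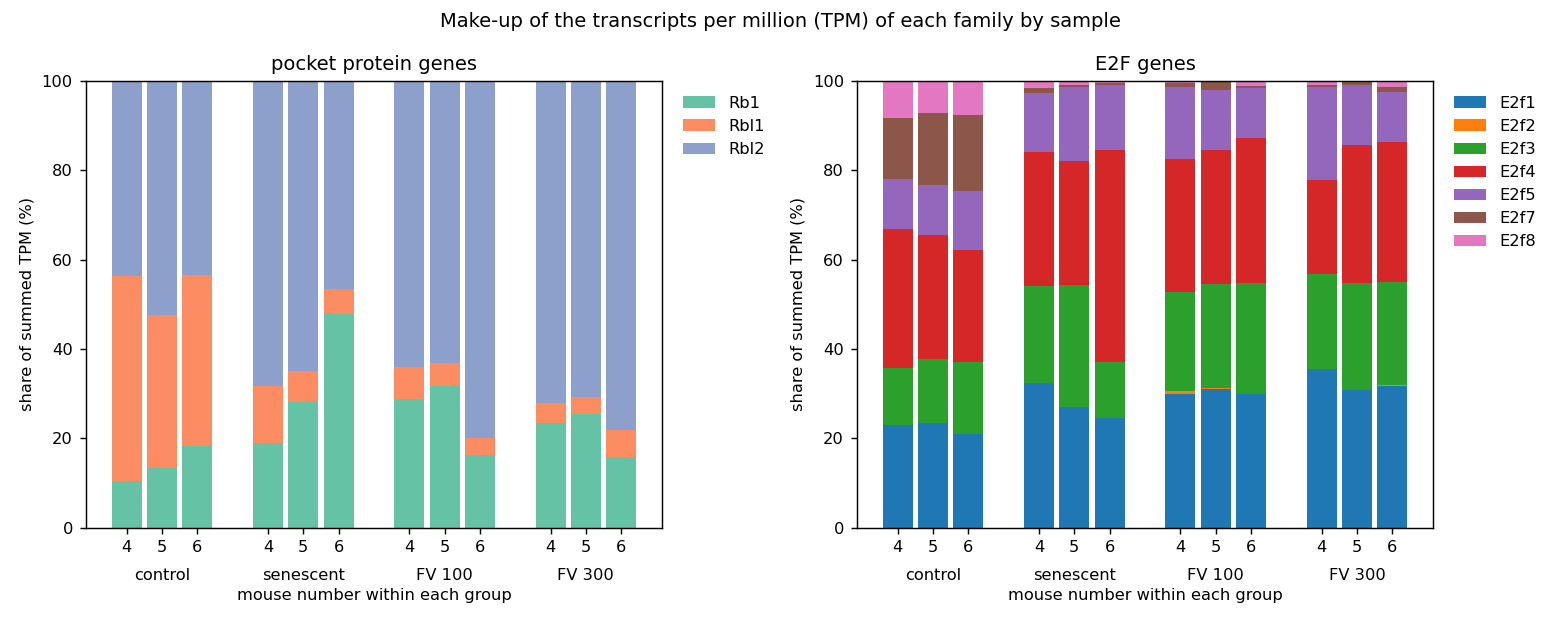
Share (percent, vertical axis) of each pocket protein gene in the summed TPM of Rb1, Rbl1 and Rbl2, and of each E2F gene in the summed TPM of the 7 E2F genes, in 1 stacked bar per sample (mice 4, 5 and 6 of each group). The Rbl1 part shrinks from 34.2 to 46.1% in control samples to at most 12.7% in all others, and the E2f7 part from 13.6 to 17.0% to at most 1.90%.

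Within the pocket protein genes, Rbl1 held 46.1, 34.2 and 38.5% of the TPM in control mice 4, 5 and 6 and 12.7, 6.89 and 5.75% in the senescent samples. Rb1 held 10.4, 13.4 and 18.2% in control and 19.0, 28.2 and 47.7% in senescent MEFs, and Rbl2 43.6, 52.4 and 43.4% in control and 68.3, 64.9 and 46.5% in senescent MEFs. For Rbl1 and Rb1 the groups did not overlap, with differences of −31.1 and 17.7 percentage points, each with p = 0.10 by an exact two-sided permutation test, the smallest p that 3 against 3 samples allow, and 0.444 after adjustment over 40 such comparisons. In mouse 6, whose Rb1 share rose most, Rb1 itself went from 5.2 TPM in control, from 38 counts, to 4.9 TPM in senescent MEFs. Rbl2 of mouse 6 went from 12.4 to 4.78 TPM. Rbl2 differed by 13.5 points (exact permutation p = 0.20). With fucoidan Rbl2 held 69.1 ± 9.47% (SD, n = 3) in FV100 and 73.7 ± 3.96% in FV300 MEFs. Within the E2F genes, the share of E2f7 went from 15.5 ± 1.71% (SD, n = 3) in control to 0.633 ± 0.428% in senescent MEFs and that of E2f8 from 7.74 ± 0.546% to 0.993 ± 0.525%, while E2f4 and E2f1 made up 28.0 ± 2.99% and 22.4 ± 1.3% in control and 35.1 ± 10.7% and 27.9 ± 4.04% in senescent MEFs. None of the 40 comparisons could pass 0.05 in this design.

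The levels of Rb1 moved with a property of the libraries, whose part in the results was not tested beyond the offsets given here. The median of 1104 genes whose exonic sequence is over 95% unique to 1 of their listed transcripts deviated from the mean over libraries by −1.33 (log2) in control mouse 6 to 1.09 in FV100 mouse 5, whereas for 6355 genes with under 50% unique sequence the medians lay between −0.18 and 0.17. Rb1 has 83.0% unique sequence, and E2f2 94.3%, while E2f1, E2f3, E2f7, E2f8 and Rbl2 have 15.3 to 34.4%, E2f4 57.3% and Rbl1 59.1%. E2f5 has no value, since only 1 of its 2 listed transcripts was found in the annotation. The control libraries 5(1) and 5(2), from 1 mouse, had medians of −1.08 and 0.72 and Rb1 levels of 0.984 and 7.16 CPM. Over the 4 control libraries the low medians of mouse 6 and 5(1) went with 1.78 and 0.984 CPM of Rb1, and the high medians of mouse 4 and 5(2) with 5.43 and 7.16 CPM. FV100 mice 4 and 5, with medians of 0.997 and 1.09, had the highest Rb1 levels. Among the senescent libraries the lowest Rb1 level was again in the library with the lowest median, mouse 5. The other senescent libraries went the other way, with 7.22 CPM in mouse 6 (median 0.372) and 11.6 CPM in mouse 4 (median 0.205). An alternative added after the data were seen used offsets that level each sample's median within bins of unique share 0.1 wide. Rb1 was thus not in the bin of the genes over 95% unique. The offsets level a group difference shared by a bin as well. With them Rb1 was 1.23 (SE 0.29, edgeR adjusted p 0.0138) higher on the log2 scale in senescent than in control MEFs and was called. Its adjusted p over all alternatives ran from 0.0134 to 0.429. With the same offsets the log2 fold change of Rb1 against control was 1.87 at FV100 and 1.75 at FV300, both called, and E2f7, E2f8 and Rbl1 were called lower in all 3 comparisons. Against senescent MEFs the FV100 value of Rb1 went from 1.09 to 0.64 with these offsets and the FV300 value from 0.58 to 0.52, neither called. The offsets treated E2f5 as wholly unique from its 1 transcript found, so its values with them, such as −1.91 at FV100 against control, do not rest on a known share.

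**Figure D4:**
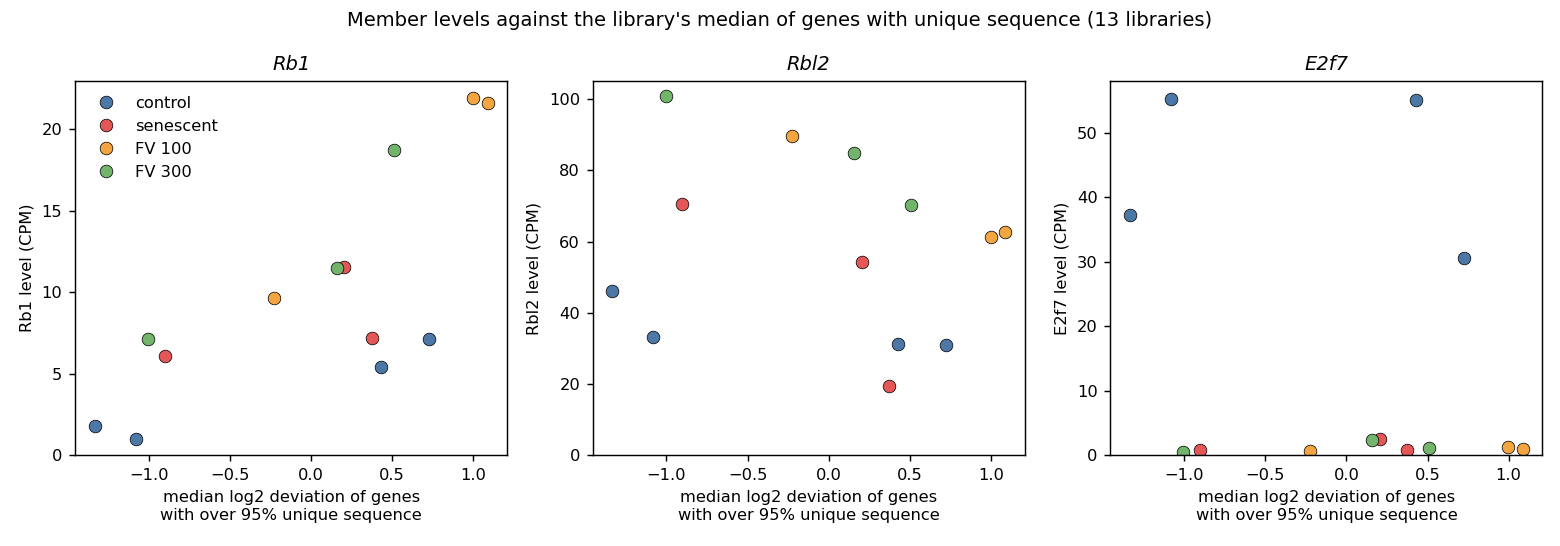
Level in CPM (vertical axis, linear) of Rb1, Rbl2 and E2f7 against the library's median log2 deviation of genes with over 95% unique sequence (horizontal axis), with 1 point for each of the 13 libraries coloured by group. Rb1 is lowest, at 0.984 and 1.78 CPM, in control libraries with low medians and highest, at 21.9 and 21.6 CPM, in FV100 libraries with high medians, while E2f7 separates the control libraries from the rest at low and high medians alike.

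The mix of transcripts that the counting assigned to some members also varied. The abundance-weighted transcript length of Rb1 ran from 690 to 3486 bases over control and senescent samples and that of E2f7 from 1470 to 4272 bases over all samples, with the groups overlapping, whereas those of E2f1 (2742 to 2745 bases), E2f5 (1764 to 1768 bases) and E2f3 (4623 to 4742 bases) hardly moved. In control mouse 5 the weighted length of Rb1 was 4656 bases in library 5(1), from 28 counts, and 1872 bases in library 5(2). TPM divides by this length, so the TPM of Rb1 and E2f7 carry its spread.

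Of the partners of the members, 4 of 12 were DEGs in senescent against control MEFs, all lower. Over all genes tested, 8.42% were called in either direction and 3.95% lower. The median of the 12 was −0.655 on the log2 scale, beside 0.07 over all genes tested. Mybl2, the activator that takes the place of pocket proteins in the MuvB complex, fell from 20.1 ± 9.87 CPM (SD, n = 3) to 1.08 ± 0.496 CPM (log2 fold change −4.21, SE 0.65, edgeR adjusted p 0.00104). Foxm1, which drives mitotic genes, fell by 3.86 (SE 0.38, edgeR adjusted p 5.15e-05) and the MuvB subunit Lin9 by 2.31 (SE 0.40, edgeR adjusted p 0.00234) on the log2 scale. The DP partner gene Tfdp1 was the fourth. At both fucoidan doses 0 of the 12 were called against senescent MEFs by edgeR, where 2.69% of all genes tested were at FV100 and 1.64% at FV300. Their median log2 fold changes were −0.05 and 0.08. E2f6, a repressor that acts without pocket proteins, passed edgeR's adjusted p at FV100 (0.0321), as 4.02% of all genes did, with a log2 fold change of −0.94.

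Of the 30 E2F target genes, 29 were DEGs, all lower in senescent MEFs, where 3.95% of all genes tested were called lower. This list, like the others, was chosen with earlier results of these data known. The list's median log2 fold change was −2.90, beside 0.07 over all genes tested. Uhrf1, which maintains DNA methylation at replication, fell from 149 ± 10.7 to 7.47 ± 1.55 CPM (SD, n = 3, log2 fold change −4.32, SE 0.49, edgeR adjusted p 0.000131). Ccna2, the S phase cyclin, fell by 4.26 on the log2 scale (SE 0.51, edgeR adjusted p 0.000204) and Mcm5, a subunit of the replicative helicase, had a log2 fold change of −3.99 (SE 0.48, edgeR adjusted p 0.000211). With fucoidan the target genes stayed low. Against senescent MEFs their median log2 fold change was −0.55 at FV100, with 23 of 30 lower, and −0.52 at FV300, with 26 of 30 lower, beside medians of −0.02 and 0.00 over all genes tested. Called at FV100 was the helicase gene Mcm6 alone, at 11.8 ± 1.78 against 25.1 ± 7.45 CPM (SD, n = 3, log2 fold change −1.09, SE 0.26, edgeR adjusted p 0.0395). At FV300, 0 of 30 were called. Over all genes tested, 2.69% were called at FV100 and 1.64% at FV300. This call of Mcm6 was lost under several alternatives, including each FV100 mouse and senescent mouse 5 or 6 left out.

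**Figure D5:**
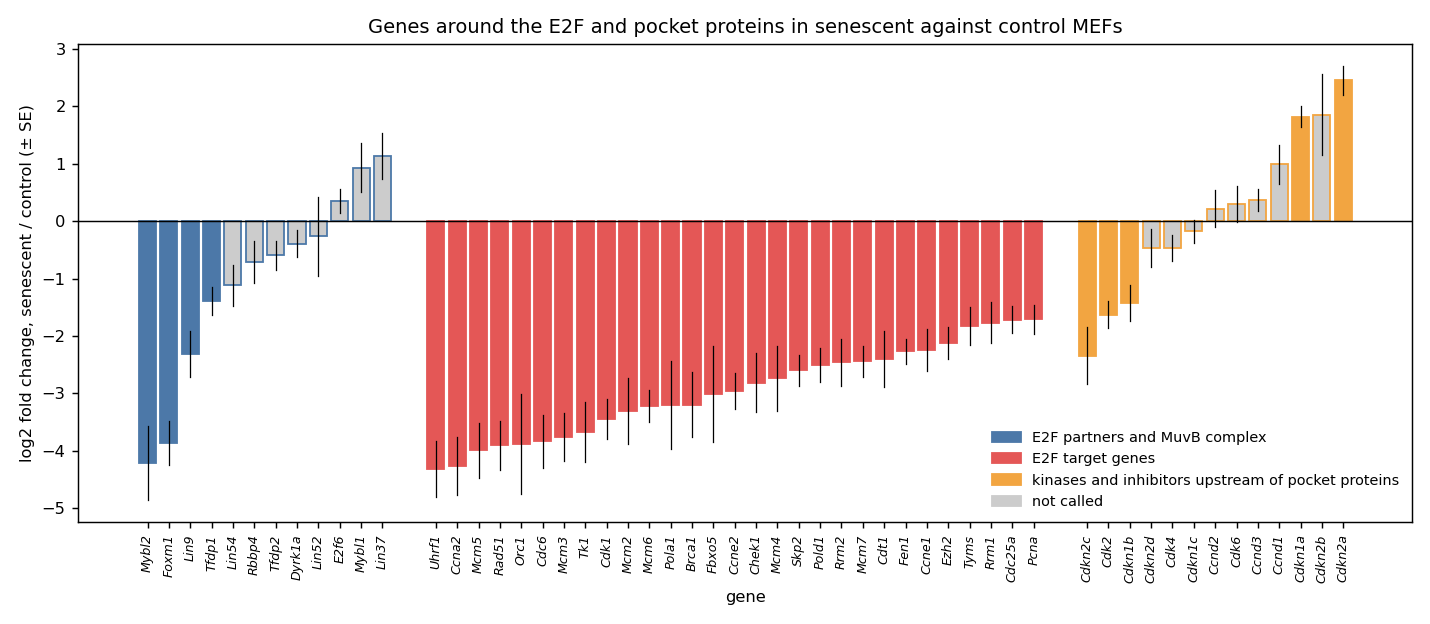
Log2 fold change of senescent against control MEFs (vertical axis, bars from 0, lines ± SE) for each of the 12 partner genes, 29 of the target genes and the 13 kinase and inhibitor genes, with genes that were not called in grey. The 29 target genes shown lie below 0 and are called, whereas the kinase and inhibitor genes lie on both sides, from Cdkn2c at −2.34 to Cdkn2a at 2.46.

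Of the 13 kinase, cyclin and inhibitor genes that act on the pocket proteins, 2 were called higher and 3 lower in senescent MEFs. Over all genes tested 4.47% were called higher and 3.95% lower. The list's median was 0.22 on the log2 scale, beside 0.07 over all genes tested. Cdkn2a, which encodes the inhibitor of Cdk4 and Cdk6 and the Trp53 regulator Arf, rose from 45.2 ± 8.41 to 248 ± 89.3 CPM (SD, n = 3, log2 fold change 2.46, SE 0.25, edgeR adjusted p 7.24e-05), and Cdkn1a, an inhibitor of Cdk2 induced by DNA damage, rose by 1.82 (SE 0.18, edgeR adjusted p 6.80e-05) on the log2 scale. Cdkn2c, another Cdk4 and Cdk6 inhibitor, fell by 2.34 (SE 0.49, edgeR adjusted p 0.00757). The genes Cdk2 and Cdkn1b were also lower. With fucoidan Cdkn1c, an inhibitor of cyclin-dependent kinases, rose from 34.2 ± 3.95 CPM in senescent MEFs to 86.2 ± 11.7 CPM in FV100 (log2 fold change 1.33, SE 0.20, edgeR adjusted p 0.00448) and 107 ± 16.1 CPM in FV300 MEFs (SD, n = 3, log2 fold change 1.65, SE 0.20, edgeR adjusted p 0.00174), higher in 3 of 3 mice at each dose. It was the one gene of this list called at each dose. Over all genes tested, 2.69% were called at FV100 and 1.64% at FV300.

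The genes whose log2 CPM ran most alike with a member over the 12 samples are given as a description, since the points share 4 groups and the library medians above. For E2f1 these were Gemin4 (Pearson r = 0.98), Carm1 (0.96) and Rbm14 (0.95). For E2f8 they were Ccnb1 (0.98), Fam111a (0.96) and Trp53 (0.96). Rb1 ran with Samd5 (0.99), Chic1 (0.99) and Epas1 (0.99), and Rbl2 with Nab1 (0.99), Kidins220 (0.99) and Golm2 (0.99). Among the members, E2f8 had r = 0.87 with E2f1, 0.86 with E2f7 and 0.84 with Rbl1, and r = −0.84 with Rb1. Rbl2 had r = −0.90 with E2f4 and 0.38 with Rb1.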

How the data were processed

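RNA of 13 libraries was sequenced from TruSeq Stranded Total RNA libraries. The authors checked reads with FastQC 0.12.1, trimmed them with Trimmomatic, aligned them to GRCm39 with STAR 2.7.11b and estimated gene levels with RSEM 1.3.1. The deposited files hold the authors' expected counts, TPM and transcript lengths (other columns of RSEM were not used), unfiltered and per library. Ambiguous reads are divided between transcripts by estimation, which can shift counts of genes with shared sequence.

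Here expected counts were rounded, those of 5(1) and 5(2) summed, and genes filtered with filterByExpr (at least 10 counts). One edgeR 4.0.16 (R 4.3.3) quasi-likelihood fit of the 4 groups used TMM factors and Benjamini-Hochberg adjustment over 15034 genes. Per-length comparisons used the mean TPM of 5(1) and 5(2). Labels number the mice alike in each group, so same-numbered samples were taken as paired; within a mouse number, correlation of deviations had a median of −0.01 in 18 pairs of samples, and 8 were above 0.1. The main fit had no block. Alternatives covered a test with DESeq2 1.42.0, scaling, filters, samples and offsets. The members and gene lists were chosen with earlier results of these data known. Named were all members, the 3 most changed called genes of each list, list genes called with fucoidan and the 3 genes most like E2f1, E2f8, Rb1 and Rbl2. Tfdp1, E2f6, Cdk2 and Cdkn1b were named after their values were seen. P-values measure the spread between cultures of 3 mice, and intervals cover no more than that. One target gene, counted in its list, and the promoter of 1 member are not reported here.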

Additional observations from a re-analysis of the deposited data

How the results depend on the processing

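In senescent against control MEFs, E2f7, E2f8 and Rbl1 were called under every alternative run, except that E2f8 was not tested where every sample needed at least 10 counts. Rb1 was called in addition with the offsets for unique sequence (log2 fold change 1.23, and 1.24 with the mouse as a replicate block as well). Against senescent MEFs no member was called under any alternative at either dose. The count of members called was 7 at FV100 against control by adjusted p alone (26.6% of all genes), and leaving out 1 mouse gave 3 to 5 at FV300 against control, with 3 without control mouse 5. With the mouse as a replicate block, the FV300 call of Rbl2 against control was lost (1.22) and the kinase and inhibitor list had 2 called at FV300. No other member's call by p and fold changed under the block.

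For the target list at FV100 against senescent MEFs, DESeq2 and the offsets for transcript number and length called 2, no filter 3, and RLE factors, at least 10 counts in every sample, a 2-group fit, separate libraries of control mouse 5, library 5(2) alone and both fits with offsets for unique sequence 0. Leaving out 1 mouse gave 0 to 1. At FV300 DESeq2 and no filter called 2, the unique-sequence offsets with the block 1, and leaving out 1 mouse 0 to 1. The partner list had 1 called at FV100 by adjusted p alone. The kinase list had 2 called at FV100 with the unique-sequence offsets and block, and 2 at FV300 with no filter. The cause of these moves was not tested.

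Small differences turned direction, none of them called. At FV300 against senescent, E2f1 was −0.033 with the offsets for transcript number and length, −0.017 with those for unique sequence and −0.013 with the block added. E2f5 was 0.008 with the unique-sequence offsets, which treated it as wholly unique, and E2f7 was 0.11 with the block and 0.15 with both. Rbl1 at FV100 was 0.042 with both. Leaving out 1 mouse gave, at FV300 against senescent, −0.06 to 0.16 for E2f1, −0.26 to 0.32 for E2f3, −0.52 to 0.024 for E2f5, −0.71 to 0.81 for E2f7 and −0.67 to 0.22 for Rbl1. At FV100 it gave −0.31 to 0.28 for E2f3, −0.47 to 0.016 for E2f4, −0.79 to 0.41 for E2f7 and −0.38 to 0.50 for Rbl1, and in senescent against control −0.52 to 0.056 for E2f3.

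The senescent minus control difference in TPM share was −0.075 percentage points for E2f2 with library 5(2) alone, −16.6 and −12.8 for E2f7 with 5(1) or 5(2) alone, and −7.31 and −6.06 for E2f8, which had −7.69 with CPM per length. Counts over all genes moved by over 1.5 times in the 2-group fit (699, 168 and 101 for senescent against control, FV100 and FV300 against senescent), with DESeq2 (833 and 643 at the doses), with no filter (800 and 580) and with the unique-sequence offsets at FV300 (382). They also moved so far with some mice left out (136 to 221 at FV100 and 46 to 159 at FV300). They did not without senescent mouse 4 (365 at FV100 and 220 at FV300) or, at FV300, without senescent mouse 5 (180). Depth limits E2f2, and E2f8 in fucoidan samples of 3 and 5 counts.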
